A study of Rattus norvegicus with 9 samples.

Results

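Transcripts of 9 complement genes were followed in rat blood after focal cerebral ischemia. They encode the regulators Cd55 and Cd59, the C3a receptor C3ar1, the 3 chains of C1q (C1qa, C1qb and C1qc), the central component C3, and factor B (Cfb) and properdin (Cfp) of the alternative pathway. The genes were taken by their symbols. Of the 18166 genes with a value, 8 of the 9 were found under the symbol of the array annotation, and Cd59 was found through its RefSeq synonym as Cd59b. Each of the 9 was measured by a single transcript cluster, the set of probes that the array assigns to a gene.

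Complement is a cascade of plasma proteins that coats and lyses targets and attracts leukocytes. The classical, lectin and alternative pathways all cleave C3, and the fragments are read by receptors on leukocytes, while membrane-bound regulators keep the cascade off the body's own cells. Most of the plasma components are made by the liver, C1q is made largely by macrophages and related cells, and properdin is made by leukocytes, neutrophils among them.

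The study compared blood gene expression in 2 rat models of stroke that carry syndromes of traditional Chinese medicine, Qi deficiency with blood stasis (QDBS) and Yin deficiency with blood stasis (YDBS), with that of sham-operated rats. Every group held 3 male Sprague-Dawley rats, labelled as biological replicates, with an Affymetrix Rat Gene 2.0 ST array for each. QDBS/MCAO rats swam to exhaustion daily over 21 days before middle cerebral artery occlusion (MCAO). YDBS/MCAO rats received hydrocortisone at 45 mg/kg by daily intramuscular injection over 13 days, then subcutaneous epinephrine at 0.36 mg/kg on 1 day, and MCAO on the day after. Sham rats underwent the operation with no filament inserted, and no pretreatment is described for them. All rats were bled from the abdominal aorta at 24 h of reperfusion, into citrate. No group had MCAO alone or a pretreatment alone, so the effects of pretreatment and of MCAO cannot be told apart.

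Signals were on the log2 scale. The blood markers Lyz2 of myeloid cells and Hba-a1 of red cells had mean signals of 11.9 and 11.7 over the 9 arrays. Array medians were 3.94 to 4.05 in the model groups and 4.15 to 4.21 in the Sham group, and 75th percentiles between 5.53 and 5.58 in the model groups and between 5.28 and 5.37 in the Sham group. Over all 18166 genes the median log2 fold change (FC) was -0.15 in QDBS and -0.16 in YDBS against Sham, and 0.02 in QDBS against YDBS. Sham replicate 2 stood apart, with a correlation across genes of 0.88 to 0.90 with the model arrays, against 0.94 to 0.95 for Sham replicates 1 and 3. It correlated at 0.963 and 0.965 with the other Sham arrays, which correlated at 0.989 with each other. Complement genes whose call was lost without this array are given without it as well, while cell markers are given with all 9 arrays. Differences were tested with limma over all genes, and a gene was called when its Benjamini-Hochberg false discovery rate (FDR) was under 0.05 and its absolute log2 FC over 1, an FC beyond 2 in either direction. FC is given with a minus sign for lower signals. Both models were compared with the same 3 Sham arrays, so their differences from Sham are not independent of each other. Statements that the arrays of groups did not overlap describe single genes. The share of all genes without overlap was not taken.

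Cd55 was up-regulated in both models under every setting tried. Cd59 was up-regulated in both models, with a QDBS call lost without Sham replicate 2 and under other settings. Its YDBS call was lost under the methods' t-test. Cd55 and Cd59 were the members called higher, 2 of 9 in QDBS and 2 of 9 in YDBS, while 9.62% and 10.4% of all genes were called higher in these comparisons. C3ar1 was the member with the largest drop, called lower in YDBS and just short of the FC limit in QDBS. The counts called lower were 0 of 9 in QDBS and 1 of 9 in YDBS, beside 1.36% and 0.919% of all genes. At an unadjusted p under 0.05, limma found 6 of 9 members in QDBS and 8 of 9 in YDBS, and the methods' t-test called 1 and 2 members after adjustment. The shares of all genes for these counts were not taken, so the counts are not read as a result about the members. By FDR alone, 2 members were higher and 3 lower in QDBS, beside 20.0% and 22.9% of all genes, and 3 were higher and 5 lower in YDBS, beside 20.5% and 25.3%. The median log2 FC of the 9 genes was -0.35 in QDBS and -0.50 in YDBS.

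**Figure D1:**
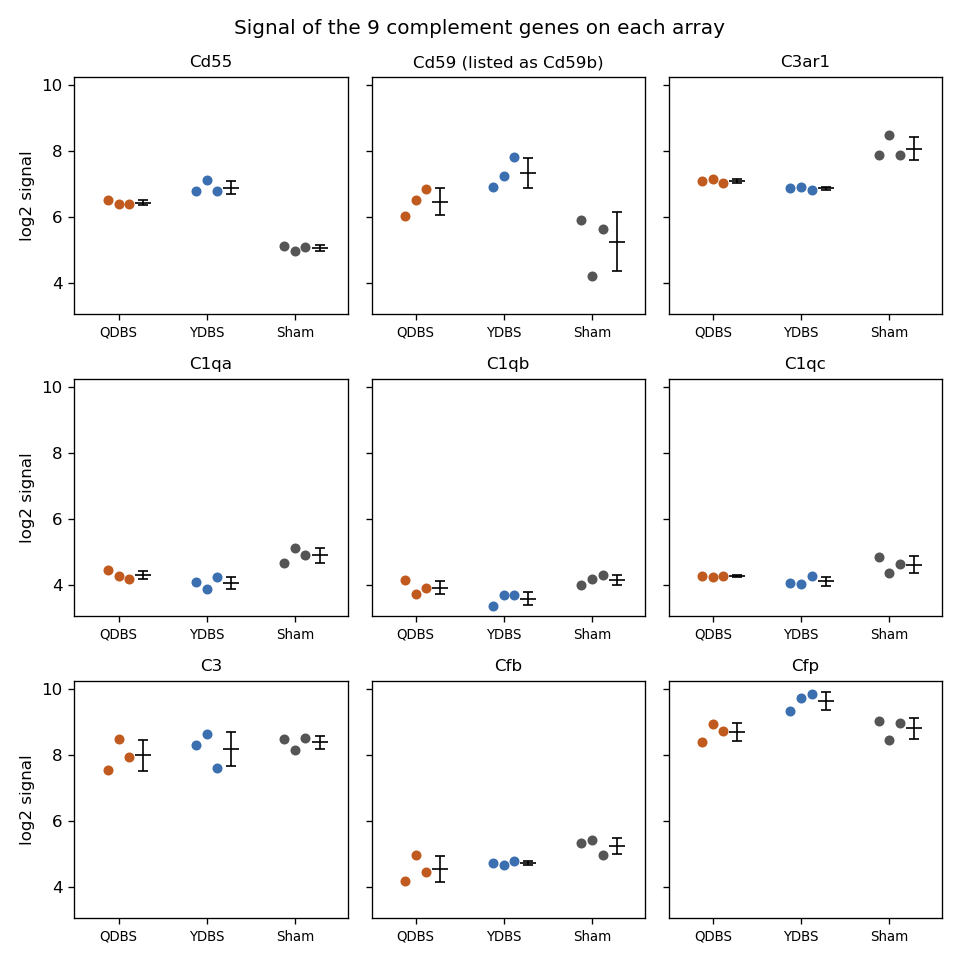
Log2 signal (vertical axis) of the 9 complement genes on each of the 9 arrays, by group (QDBS/MCAO, YDBS/MCAO, Sham). Points are arrays and the bars at their right give mean ± SD (n = 3). All 6 model arrays lie above the 3 Sham arrays for Cd55 and Cd59 and below them for C3ar1, C1qa, C1qc and Cfb. The share of all genes without overlap was not taken.

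Cd55, decay-accelerating factor, is a lipid-anchored surface protein that takes apart the convertases of C3 and C5. Its signal was 6.52, 6.39 and 6.39 on the QDBS arrays, 6.78, 7.12 and 6.80 on the YDBS arrays, and 5.14, 4.97 and 5.10 on the Sham arrays. Every model array was above every Sham array, and the arrays of a group lay close together. The mean was 6.44 ± 0.08 in QDBS and 5.07 ± 0.09 in Sham (SD, n = 3 each), an FC of 2.58 (log2 FC 1.37, SE 0.13, FDR = 2.27e-05). In YDBS it was 6.90 ± 0.19 against 5.07 ± 0.09 in Sham, an FC of 3.56 (log2 FC 1.83, FDR = 3.5e-06). Cd55 was called in both models under every alternative setting, with log2 FC between 1.14 and 1.53 in QDBS and between 1.62 and 2.03 in YDBS. Genes of similar signal, between 6 and 7, also tended upward, and their log2 FC had medians of 0.41 (QDBS) and 0.42 (YDBS).

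Cd59 blocks the last step of the cascade, the assembly of the membrane attack complex. It had signals of 6.03, 6.53 and 6.86 on the QDBS arrays, 6.91, 7.26 and 7.82 on the YDBS arrays, and 5.91, 4.23 and 5.66 on the Sham arrays. The groups did not overlap, but QDBS replicate 1 was only just above Sham replicate 1, and Sham replicate 2 lay far below the other Sham arrays. The FC was 2.32 in QDBS (log2 FC 1.21, SE 0.40, FDR = 0.0311) and 4.18 in YDBS (log2 FC 2.06, SE 0.40, FDR = 0.00212). Without Sham replicate 2 the log2 FC was 0.69 in QDBS (FDR = 0.0758), which is no longer a call, and 1.54 in YDBS (FDR = 0.00196). The QDBS call was also lost without QDBS replicate 2 (FDR = 0.0827) or replicate 3 (FDR = 0.106), and under 3 of 4 other scalings of the arrays. A fit of only the groups compared, array weights and the methods' t-test ended it as well. The YDBS call was lost under the methods' t-test (FDR = 0.0791).

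With the other membrane regulators measured, Cr1l and Cd46, all 4 genes of this role had mean signals above Sham in both models under each of 4 other scalings. Cr1l, known in rodents as Crry, inhibits the C3 convertases. Its signals were 7.55, 7.63 and 7.66 on the QDBS arrays, 7.58, 7.81 and 7.84 on the YDBS arrays, and 6.96, 6.21 and 6.61 on the Sham arrays. Every model array exceeded every Sham array, and the FC was 2.04 in QDBS (FDR = 0.00101) and 2.22 in YDBS (FDR = 0.000442). Its log2 FC of 1.03 and 1.15 lay close to the limit of 1, and without Sham replicate 2 it was 0.83 in QDBS and 0.96 in YDBS, which ended both calls, as did 3 of 4 other scalings. Cd46, a cofactor for cleavage of C3b, was a dimmer gene, with a mean signal of 3.97 in QDBS, 4.54 in YDBS and 3.31 in Sham. It was called in YDBS (log2 FC 1.23, FDR = 0.00063), while in QDBS its log2 FC was 0.66 (FDR = 0.0201). Of the 4 genes, 3 were called higher in QDBS and 4 in YDBS, beside 9.62% and 10.4% of all genes. Their median log2 FC was 1.12 and 1.53. Without Sham replicate 2 the QDBS calls of Cd59 and Cr1l and the YDBS call of Cr1l were lost.

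In the RefSeq gene table of rat assembly GRCr8, the genes of several of these proteins are neighbours. Cd46, Cr1l and Cr2 follow one another on chromosome 13 with no other protein-coding gene between them. Cd55 lies elsewhere on that chromosome, separated by 1 protein-coding gene from C4bpa, which encodes a soluble inhibitor. C4bpa had log2 FC of -0.27 in QDBS (FDR = 0.115) and -0.30 in YDBS (FDR = 0.0823). C1qb, C1qc and C1qa likewise stand side by side on chromosome 5.

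The start regions of Cd55, Cd46 and Cr1l are printed because these regulators were higher together, and that of C3ar1 because it was the member that fell most. They are the RefSeq windows of GRCr8 from 250 bases before the transcription start to 50 after it, all on the minus strand and written 5′ to 3′. Cd55 is at chr13:44438052-44438351, Cd46 at chr13:109134720-109135019, Cr1l at chr13:109188820-109189119 and C3ar1 at chr4:157756481-157756780. Capitals mark matches, on either strand, to the glucocorticoid receptor monomer site AGAACA, the cAMP response element TGACGTCA, its core TGACG, the PU.1 core GAGGAA, the CCAAT box CCAAT or the TATA box TATAAA.
Cd55: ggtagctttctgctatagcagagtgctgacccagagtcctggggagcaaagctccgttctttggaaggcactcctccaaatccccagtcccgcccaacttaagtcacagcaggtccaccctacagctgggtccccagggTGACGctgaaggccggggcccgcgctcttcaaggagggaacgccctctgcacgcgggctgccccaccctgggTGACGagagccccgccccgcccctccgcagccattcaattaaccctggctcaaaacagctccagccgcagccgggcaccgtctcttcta
Cd46: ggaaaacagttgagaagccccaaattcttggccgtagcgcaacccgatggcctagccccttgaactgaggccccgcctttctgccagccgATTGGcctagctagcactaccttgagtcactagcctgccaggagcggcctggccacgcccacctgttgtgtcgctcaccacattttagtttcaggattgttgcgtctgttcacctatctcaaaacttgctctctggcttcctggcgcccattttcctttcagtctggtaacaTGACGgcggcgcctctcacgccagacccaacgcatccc
Cr1l: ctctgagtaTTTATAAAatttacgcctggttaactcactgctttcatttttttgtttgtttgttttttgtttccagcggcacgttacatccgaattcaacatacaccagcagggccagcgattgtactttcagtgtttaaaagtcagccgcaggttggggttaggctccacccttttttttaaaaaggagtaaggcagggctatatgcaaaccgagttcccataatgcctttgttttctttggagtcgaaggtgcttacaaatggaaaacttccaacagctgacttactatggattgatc
C3ar1: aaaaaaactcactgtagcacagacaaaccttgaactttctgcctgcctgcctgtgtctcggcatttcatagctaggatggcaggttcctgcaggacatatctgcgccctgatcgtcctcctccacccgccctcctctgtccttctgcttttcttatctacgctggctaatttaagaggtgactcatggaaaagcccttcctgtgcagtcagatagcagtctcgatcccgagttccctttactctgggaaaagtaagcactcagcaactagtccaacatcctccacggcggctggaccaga

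The Cd55 window held 2 copies of TGACG, and the Cd46 window 1 copy, placed after the start, together with 1 CCAAT box on the opposite strand. The Cr1l window held a TATAAA on each strand, which overlap and lie far before the start. The C3ar1 window held none of the 6 motifs. Of 33469 rat start regions of the same length, 21.2% held TGACG, 37.5% CCAAT, 14.2% TATAAA, 20.7% AGAACA, 27.6% GAGGAA and 1.83% TGACGTCA. Matching letters describe these windows and do not show that a factor binds.

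C3ar1, the G protein-coupled receptor of the anaphylatoxin C3a on myeloid cells, was down-regulated. Its signal was 7.09, 7.17 and 7.04 on the QDBS arrays, 6.89, 6.91 and 6.82 on the YDBS arrays, and 7.87, 8.49 and 7.88 on the Sham arrays. All model arrays were below all Sham arrays, and the highest value was that of Sham replicate 2. The FC was -1.98 in QDBS (log2 FC -0.98, SE 0.16, FDR = 0.000874) and -2.31 in YDBS (log2 FC -1.21, SE 0.16, FDR = 0.000212). Without Sham replicate 2 the log2 FC was -0.78 in QDBS (FDR = 0.000262) and -1.0 in YDBS (FDR = 4.8e-05). The QDBS value crossed the limit of -1 under 3 of 4 other scalings, with log2 FC of -1.21, -1.25 and -1.27. Genes with a signal between 7 and 8, where C3ar1 lay, were mostly higher in the models, at medians of 0.31 (QDBS) and 0.34 (YDBS) on that scale. In such bulk blood samples, fewer cells of a type and less RNA per cell cannot be told apart.

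The receptors of C3 fragments were not lower as a group. Cr2, which binds C3d on B cells, was called higher in both models, with FC of 3.07 in QDBS (log2 FC 1.62, FDR = 8.51e-05) and 2.44 in YDBS (log2 FC 1.29, FDR = 0.000346). Itgam, the alpha chain of complement receptor 3 on neutrophils and monocytes, was called in YDBS (log2 FC 1.45, FDR = 0.000183), with a log2 FC of 0.58 in QDBS (FDR = 0.0301). Itgax, the alpha chain of complement receptor 4, had log2 FC of -0.83 in QDBS (FDR = 0.0124) and -0.39 in YDBS (FDR = 0.16). Itgb2, the beta chain of both receptors, had log2 FC of 0.31 and 0.42 (FDR = 0.0979 and 0.0361). Of 6 receptor genes measured, 1 was called higher and 0 lower in QDBS, beside 9.62% and 1.36% of all genes. In YDBS 2 were called higher and 1 lower, beside 10.4% and 0.919%.

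Markers of the cells that carry these receptors did not all move with C3ar1. The mean signal of 9 monocyte markers ranged over 7.91 to 8.13 in QDBS, 8.01 to 8.17 in YDBS and 7.21 to 7.53 in Sham. Of the 9, 2 were called higher in each model, beside 9.62% of all genes in QDBS and 10.4% in YDBS. The brightest monocyte marker, Lyz2, had log2 FC of 0.35 in QDBS (FDR = 0.0223) and 0.56 in YDBS (FDR = 0.00196). The next brightest, Csf1r, had log2 FC of -0.03 in QDBS (FDR = 0.916) and -0.18 in YDBS (FDR = 0.477). The 6 B cell markers measured include Cr2. Their mean ranged over 7.34 to 8.16 in QDBS, 6.80 to 7.53 in YDBS and 6.01 to 6.59 in Sham. Of the 6, 3 were called higher in QDBS and 2 in YDBS, beside 9.62% and 10.4% of all genes. Cd79b and Cd79a, parts of the B cell receptor, had log2 FC of 1.1 (FDR = 0.0193) and 0.61 (FDR = 0.0419) in QDBS, and of 0.22 (FDR = 0.587) and -0.06 (FDR = 0.829) in YDBS. The part of cell numbers in the receptor values was not tested.

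The genes of C1q, the recognition molecule of the classical pathway, had lower signals in the models, with the exception that C1qb was 0.05 higher in QDBS under cyclic loess scaling. C1qa had signals of 4.46, 4.29 and 4.20 on the QDBS arrays, 4.11, 3.88 and 4.25 on the YDBS arrays, and 4.69, 5.14 and 4.92 on the Sham arrays. The groups did not overlap, and its log2 FC was -0.60 in QDBS (SE 0.15, FDR = 0.00925) and -0.83 in YDBS (SE 0.15, FDR = 0.00138), short of the FC limit in both. C1qb had signals of 4.15, 3.74 and 3.91 on the QDBS arrays, 3.39, 3.72 and 3.70 on the YDBS arrays, and 4.02, 4.18 and 4.32 on the Sham arrays. Its QDBS arrays overlapped those of Sham (log2 FC -0.24, FDR = 0.206), while its YDBS arrays were all below Sham (log2 FC -0.57, FDR = 0.0102). C1qc had signals of 4.29, 4.24 and 4.29 on the QDBS arrays, 4.06, 4.03 and 4.29 on the YDBS arrays, and 4.86, 4.36 and 4.66 on the Sham arrays. All model arrays were below Sham, with log2 FC of -0.35 in QDBS (FDR = 0.0673) and -0.50 in YDBS (FDR = 0.016).

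The C1q genes lay among dim genes, most of which were lower in the models. Between signals of 4 and 5, where C1qa, C1qc and Cfb lay, 69.0% of genes were lower in QDBS and 69.5% in YDBS than in Sham, with median log2 FC of -0.25 and -0.28. Between 3 and 4, where C1qb lay, the medians were -0.32 and -0.34. C1qb and C1qc differed from the median of their band by less than their SE of 0.15 and 0.14 in QDBS and by more than it in YDBS, and C1qa by more in both models. Of 10 markers of tissue macrophages, 0 were called in either model. By FDR alone 2 were lower in each, beside 22.9% and 25.3% of all genes. These were Marco and Hmox1 in QDBS, and Marco and Cd163 in YDBS. Marco had log2 FC of -0.85 in QDBS (FDR = 0.000212) and -0.82 in YDBS (FDR = 0.000245). By sign alone, 9 of the 10 were lower in QDBS and 7 in YDBS. The mean of the list was 4.47 to 4.49 in QDBS, 4.35 to 4.61 in YDBS and 4.72 to 4.75 in Sham. Its brightest genes, the iron exporter Slc40a1 and the macrophage surface protein Adgre1, had log2 FC of -0.47 (FDR = 0.23) and 0.67 (FDR = 0.0844) in QDBS, and of 0.08 (FDR = 0.848) and 0.38 (FDR = 0.296) in YDBS. Adgre1 was at 5.98, 4.57 and 5.82 on the Sham arrays, lowest on replicate 2. The part of macrophage RNA in the C1q values was not tested.

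**Figure D2:**
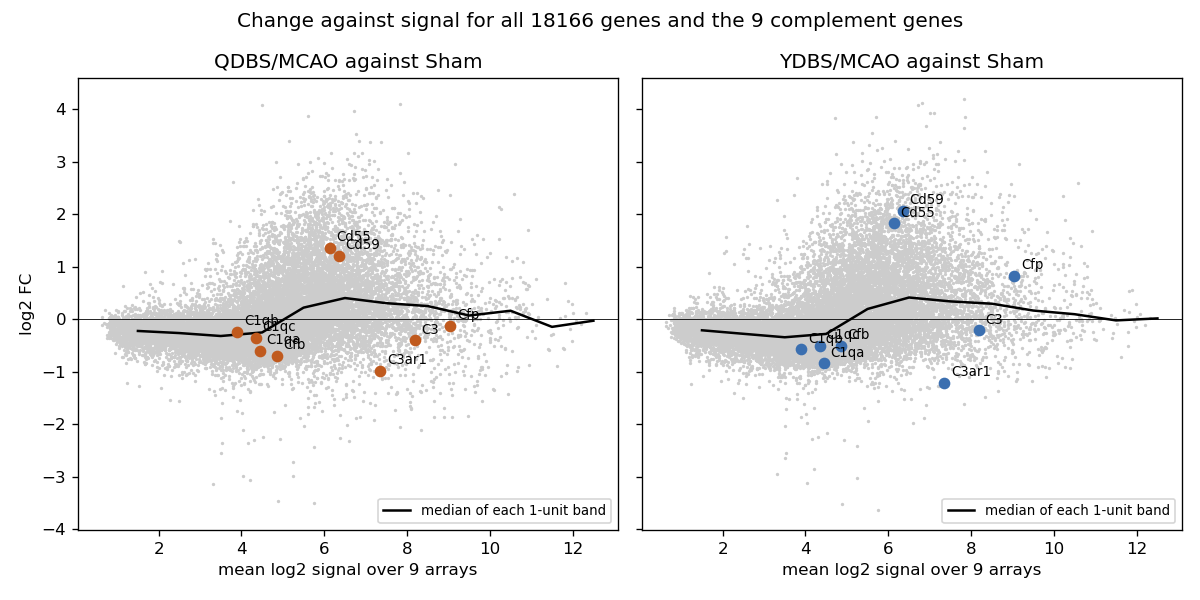
Log2 FC against Sham (vertical axis) by mean log2 signal over 9 arrays (horizontal axis) for 18166 genes, in QDBS/MCAO (left) and YDBS/MCAO (right). Grey points are genes, the black line joins the medians of 1-unit signal bands, and labelled points are the complement genes. In QDBS/MCAO C1qb and C1qc lie near the line, C1qa lies below it in both models, Cd55 and Cd59 lie above it and C3ar1 below it.

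The proteases that C1q activates were also lower. C1r was called in YDBS (log2 FC -1.12, FDR = 0.00046) and had a log2 FC of -0.94 in QDBS (FDR = 0.00155). Its YDBS call was lost under array median centring and under cyclic loess scaling. C1s, which C1r cleaves, had log2 FC of -0.62 in QDBS (FDR = 0.00818) and -0.64 in YDBS (FDR = 0.00682). Over the 5 genes of classical pathway initiation, 3 were lower by FDR alone in QDBS and 5 in YDBS, beside 22.9% and 25.3% of all genes. All 5 lay among dim genes, most of which were lower in the models. Between signals of 2 and 3, where C1s lay, 89.5% of genes were lower in QDBS and 88.9% in YDBS. Between 4 and 5, where C1r lay, 69.0% and 69.5% were lower.

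C3, on which all the pathways converge, did not pass the test. Its signal was 7.55, 8.48 and 7.95 on the QDBS arrays, 8.31, 8.63 and 7.62 on the YDBS arrays, and 8.48, 8.17 and 8.52 on the Sham arrays. The groups overlapped, and the spread within each model exceeded that within Sham. The log2 FC was -0.40 in QDBS (95% confidence interval -1.0 to 0.20, FDR = 0.242) and -0.21 in YDBS (interval -0.81 to 0.39, FDR = 0.539), and in YDBS the sign turned without replicate 3. Cfb, the protease of the alternative C3 convertase, had signals of 4.19, 4.98 and 4.48 on the QDBS arrays, 4.75, 4.68 and 4.79 on the YDBS arrays, and 5.33, 5.43 and 4.98 on the Sham arrays. QDBS replicate 2 nearly reached the lowest Sham array, and no arrays of the models were above Sham. The log2 FC was -0.70 in QDBS (SE 0.19, FDR = 0.0143) and -0.51 in YDBS (SE 0.19, FDR = 0.0489). Without any one of the YDBS arrays the FDR in YDBS was 0.0864 to 0.127.

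Properdin, the plasma protein that stabilises the alternative C3 convertase, was higher in YDBS than in Sham by FDR, short of the FC limit. Cfp had signals of 8.40, 8.94 and 8.74 on the QDBS arrays, 9.33, 9.72 and 9.86 on the YDBS arrays, and 9.02, 8.45 and 8.97 on the Sham arrays. The YDBS arrays were above all others, while QDBS and Sham overlapped. Cfp had an FC of 1.77 in YDBS against Sham (log2 FC 0.82, SE 0.20, FDR = 0.00774) and of -1.09 in QDBS against Sham (log2 FC -0.12, FDR = 0.635, of opposite sign at 0.05 when arrays were centred on their medians). In QDBS against YDBS its log2 FC was -0.94 (95% confidence interval -1.39 to -0.50, FDR = 0.0787), which did not pass the threshold. Cfd, the protease that cleaves factor B, had log2 FC of -0.31 in QDBS (FDR = 0.209) and 0.40 in YDBS (FDR = 0.111).

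The mean of the neutrophil markers was higher in YDBS beside Cfp and Itgam, while the markers Ngp and Camp were lower. The mean of 10 neutrophil markers was 7.20 to 8.07 in QDBS, 8.21 to 8.84 in YDBS and 7.32 to 7.63 in Sham. Of these 10, 7 were called higher and 1 lower in YDBS against Sham, beside 10.4% and 0.919% of all genes. In QDBS against Sham 0 were called higher and 2 lower, beside 9.62% and 1.36%. In QDBS against YDBS 0 were called higher and 3 lower, beside 0% and 0.330%. Ngp was at 5.90, 6.60 and 6.20 on the YDBS arrays and 8.35, 7.76 and 8.24 on the Sham arrays. Camp was at 5.72, 6.43 and 6.29 on the YDBS arrays and 7.30, 6.54 and 6.95 on the Sham arrays. Csf3r, the receptor of granulocyte colony-stimulating factor, had log2 FC of 1.05 in YDBS against Sham (FDR = 0.000415) and -1.03 in QDBS against YDBS (FDR = 0.029). S100a9, a calcium-binding protein of neutrophils, had log2 FC of 1.45 in YDBS against Sham (FDR = 0.000839) and -1.05 in QDBS against YDBS (FDR = 0.0963). The part of neutrophil numbers in the Cfp values was not tested.

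Over the wider pathway, 41 of 48 listed complement genes were measured and the other 7 were not analysed here. In QDBS, 4 of 41 were called higher and 1 lower against Sham, beside 9.62% and 1.36% of all genes. In YDBS 6 were called higher and 4 lower, beside 10.4% and 0.919%. By FDR alone, 6 were higher and 17 lower in QDBS, beside 20.0% and 22.9% of all genes, and 9 were higher and 19 lower in YDBS, beside 20.5% and 25.3%. The share called higher in QDBS was thus close to that of all genes. The median log2 FC was -0.40 in QDBS and -0.35 in YDBS. The genes called higher were Cd55, Cd59, Cr1l and Cr2 in both models, and Cd46 and Itgam in YDBS. Without Sham replicate 2 the counts in QDBS were 2 higher and 4 lower. The shares of all genes without this array were not taken, so these counts are not read as a result about the pathway.

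**Figure D3:**
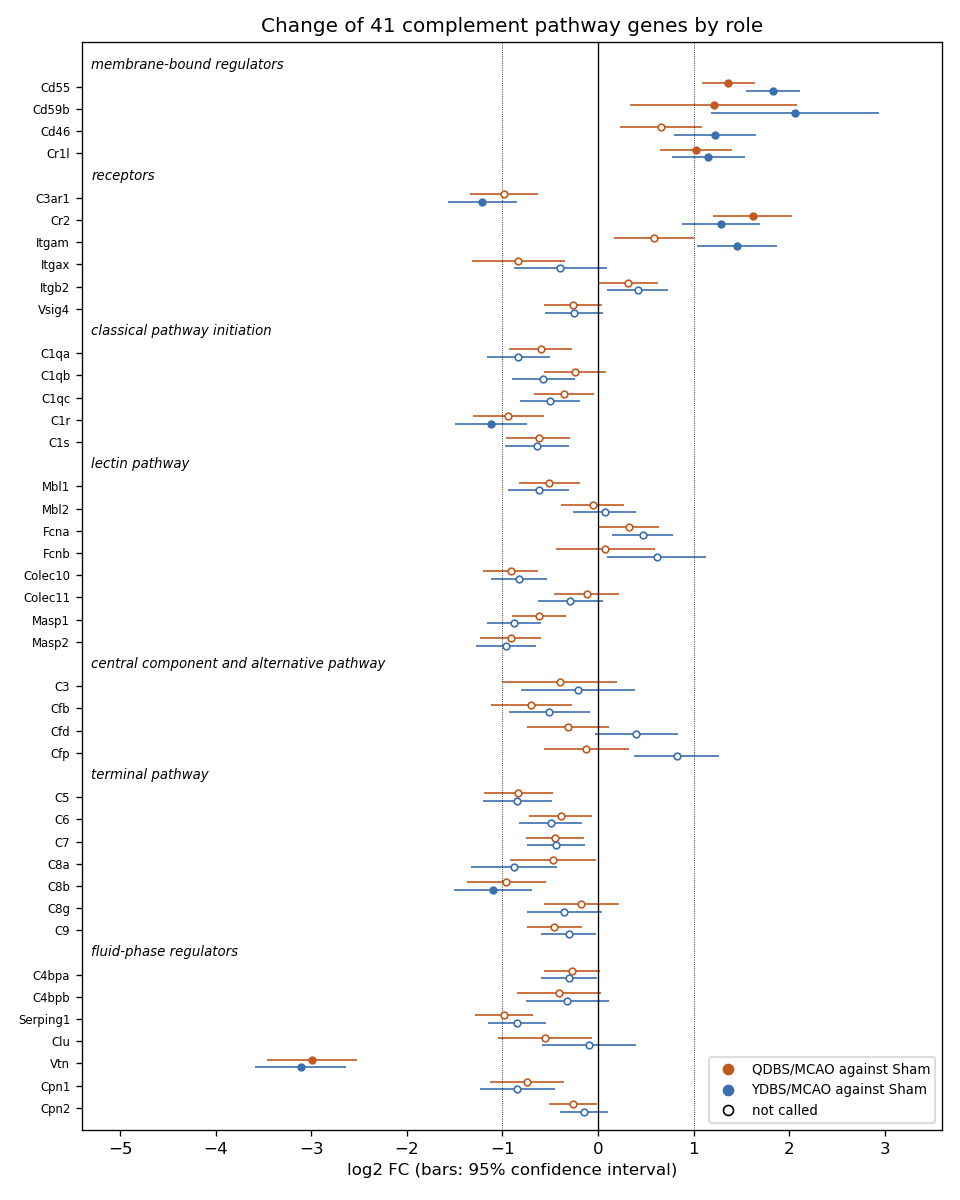
Log2 FC against Sham (horizontal axis) of 41 complement genes grouped by role, in QDBS/MCAO (orange) and YDBS/MCAO (blue), with Cd59 under its RefSeq symbol Cd59b. Filled points were called and open points were not, bars are 95% confidence intervals, and dotted lines mark the limits of -1 and 1. The 4 membrane-bound regulators lie at the right, and Vtn has the lowest values at -2.99 and -3.11.

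Among plasma components and their fluid-phase regulators, Vtn was called lower in both models. Most of these genes were dim, and between signals of 2 and 3, 89.5% of all genes were lower in QDBS and 88.9% in YDBS than in Sham, and between 3 and 4, 87.0% and 87.2%. Vtn, vitronectin, a plasma protein that holds back the membrane attack complex, had signals of 2.99, 3.10 and 3.14 on the QDBS arrays, 3.01, 2.59 and 3.27 on the YDBS arrays, and 6.37, 5.58 and 6.24 on the Sham arrays. Model and Sham arrays were far apart, with FC of -7.95 in QDBS (log2 FC -2.99, FDR = 4.78e-06) and -8.64 in YDBS (log2 FC -3.11, FDR = 3.5e-06). Of the 7 terminal pathway genes, 4 were lower by FDR in QDBS and 5 in YDBS, beside 22.9% and 25.3% of all genes. Most of the 7 lay in these dim bands, whose median log2 FC was -0.26 to -0.34. Among them C8b, a chain of the membrane attack complex, was called in YDBS (log2 FC -1.10, FDR = 0.000952) and had a log2 FC of -0.96 in QDBS (FDR = 0.00238). Its YDBS call was lost under array median centring, quantile normalization and cyclic loess scaling, and without Sham replicate 3. C8g and C8a, the other chains of C8, had log2 FC of -0.17 (FDR = 0.435) and -0.47 (FDR = 0.0829) in QDBS, and of -0.35 (FDR = 0.122) and -0.88 (FDR = 0.00583) in YDBS.

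Cpn1, which inactivates anaphylatoxins, had log2 FC of -0.74 in QDBS (FDR = 0.00723) and -0.84 in YDBS (FDR = 0.00344). Clu, clusterin, which is abundant in platelets, had log2 FC of -0.55 in QDBS (FDR = 0.0654) and -0.10 in YDBS (FDR = 0.733). Of 7 fluid-phase regulators, 3 were lower by FDR in each model, and 1, Vtn, was called. Of 8 lectin pathway genes, 0 were called and 4 were lower by FDR in each model. Of all genes, 22.9% were lower by FDR in QDBS and 25.3% in YDBS, and 1.36% and 0.919% were called lower. The ficolins Fcnb and Fcna, pattern recognition molecules of that pathway, had log2 FC of 0.08 (FDR = 0.799) and 0.32 (FDR = 0.0924) in QDBS, and of 0.61 (FDR = 0.052) and 0.47 (FDR = 0.0228) in YDBS.

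Hepatocyte markers were lower in both models beside Vtn. The mean of 10 hepatocyte markers was 3.17 to 3.26 in QDBS, 3.21 to 3.33 in YDBS and 4.79 to 5.16 in Sham. Of the 10, 7 were called lower in each model, beside 1.36% of all genes in QDBS and 0.919% in YDBS. The retinol carrier Ttr had log2 FC of -2.98 in QDBS (FDR = 8.55e-07) and -3.02 in YDBS (FDR = 1.26e-06). The liver enzyme Cyp2e1 had log2 FC of -3.46 in QDBS (FDR = 5.72e-07) and -3.51 in YDBS (FDR = 8.52e-07). The part of liver RNA in the Sham values of Vtn and the other plasma components was not tested.

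Platelets, red cells, T cells, neutrophils and monocytes carry Cd55 or Cd59, and their markers were set beside these genes. The mean of 7 platelet markers was 9.02 to 9.80 in QDBS, 9.52 to 10.5 in YDBS and 10.5 to 10.8 in Sham. Of the 7, 5 were called lower in QDBS and 0 in YDBS, beside 1.36% and 0.919% of all genes. Pf4 and Gp9 had log2 FC of -0.57 (FDR = 0.0542) and -1.43 (FDR = 0.000366) in QDBS, and of -0.50 (FDR = 0.0799) and -0.75 (FDR = 0.013) in YDBS. Of 6 erythroid markers, 3 were called lower in QDBS and 0 in YDBS, beside the same shares of all genes. Their mean was 7.37 to 7.59 in QDBS, 7.89 to 8.63 in YDBS and 7.80 to 8.66 in Sham. The low end in Sham was replicate 2, and Sham replicates 1 and 3 were at 8.66 and 8.64, above every YDBS array. Hba-a1 had log2 FC of 0.02 (FDR = 0.946) in QDBS and 0.17 (FDR = 0.543) in YDBS, and the anion exchanger Slc4a1 had -0.70 (FDR = 0.189) and 0.14 (FDR = 0.795). Slc4a1 was at 10.56, 8.68 and 10.48 on the Sham arrays, lowest on replicate 2.

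The mean of 8 T cell markers was 8.42 to 8.61 in QDBS, 7.84 to 8.11 in YDBS and 7.18 to 7.72 in Sham. Of the 8, 3 were called higher in QDBS and 1 in YDBS, beside 9.62% and 10.4% of all genes. Cd4 and Lck had log2 FC of 0.94 (FDR = 0.00963) and 0.67 (FDR = 0.0106) in QDBS, and of 0.70 (FDR = 0.0339) and 0.06 (FDR = 0.792) in YDBS. The neutrophil mean on the arrays was 7.20, 7.50 and 8.07 in QDBS, 8.21, 8.76 and 8.84 in YDBS, and 7.63, 7.32 and 7.57 in Sham. Cd59 was in the same order over the 6 model arrays. That order includes the difference between the models, as all YDBS arrays were above all QDBS arrays for both. The Sham arrays lay within the QDBS range for the neutrophil mean and below every QDBS array for Cd59. The monocyte, T cell and B cell means were each above Sham on every model array, as Cd55 and Cd59 were. The part of any of these cells in the Cd55 and Cd59 values was not tested.

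**Figure D4:**
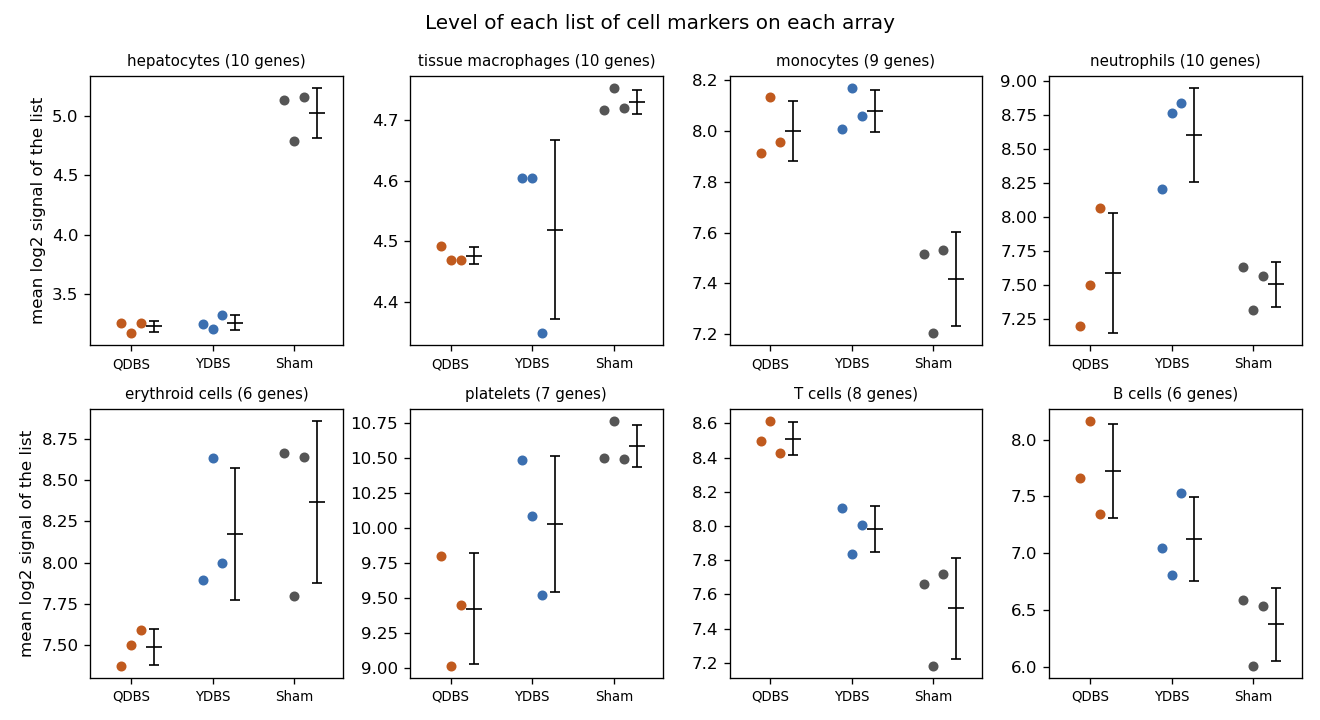
Mean log2 signal of 8 lists of cell markers (vertical axes, which differ between panels) on each array, by group (QDBS/MCAO, YDBS/MCAO, Sham). Points are arrays and the bars at their right give mean ± SD (n = 3). The mean of the hepatocyte markers is lower in both models than in Sham, and that of the neutrophil markers is highest in YDBS/MCAO.

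Between the models, 0 of 9 members were called higher and 0 lower in QDBS against YDBS with limma, beside 0% and 0.330% of all genes. At an unadjusted p under 0.05, 3 of 9 passed, which were C1qb, Cfp and Cd55, and the methods' t-test called 0 and passed 3 unadjusted. Cd55 had a log2 FC of -0.47 (95% confidence interval -0.75 to -0.19, FDR = 0.148), with all QDBS arrays below all YDBS arrays. Cd59 had a log2 FC of -0.85 (interval -1.73 to 0.03, FDR = 0.496), also with no overlap. C1qb had a log2 FC of 0.33 (interval 0.01 to 0.66, FDR = 0.448) and C3ar1 of 0.23 (interval -0.13 to 0.58, FDR = 0.758), with all QDBS arrays above all YDBS arrays for both. The intervals of C3 (-0.79 to 0.41), C1qa (-0.09 to 0.57), C1qc (-0.17 to 0.46) and Cfb (-0.61 to 0.23) held 0. Of the 41 pathway genes 0 were called, and 7 passed at an unadjusted p under 0.05 with limma and 5 with the methods' t-test. The shares of all genes at an unadjusted p were not taken, so these unadjusted counts are not read as a result about the genes. The share of all genes without overlap between the models was not taken either, so absence of overlap is not read as a result.

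Some genes outside the pathway followed the members closely across the 9 arrays. These correlations describe 9 arrays from 3 groups, so they include the differences between the groups. The genes most like Cd55 were Zfp655, Cep120 and Hexim1, with Pearson correlations of 0.992, 0.991 and 0.991. For Cd59 they were Rpe, Cyth4 and Lbr, at 0.991, 0.988 and 0.985, and for C3ar1 Dlk2, Asic4 and Soat2, at 0.994, 0.991 and 0.991. Cfp was closest to Fgr, a kinase of myeloid cells, to Slc22a15 and to Rara, the retinoic acid receptor alpha, at 0.972, 0.971 and 0.969. For C1qa they were Sox7, Smpx and Ccdc42, at 0.990, 0.988 and 0.988, for C1qb Cpne9, Rnps1l1 and Pmfbp1, at 0.959, 0.953 and 0.937, and for C1qc Fstl3, Kif28p and Aadacl4, at 0.975, 0.975 and 0.972. For Cfb they were Sulf2, Klhl3 and Plvap, at 0.978, 0.978 and 0.972. C3 had the weakest matches, Pgm1, Ppp1r13b and Or1f33, at 0.926, 0.893 and 0.884.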

How the data were processed

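Blood RNA of 9 rats, 3 per group, was hybridised to Affymetrix Rat Gene 2.0 ST arrays. The authors computed the deposited log2 values of 30347 transcript clusters in Affymetrix Expression Console 1.1 by RMA (background correction, quantile normalization and probe summary), and they were used unchanged. Clusters with exactly 1 symbol (18511) were named, symbols were updated through Entrez identifiers, and the brightest cluster was kept for 291 genes that had several, which left 18166 genes with no filter on signal. Genome build and batch are not given in the sources used here, and precision is limited by how few arrays there are. All 9 arrays entered a single limma fit (limma 3.58.1, R 4.3.3, 6 residual degrees of freedom), FDR was adjusted over all genes, and the fit was tested on simulated data. Each array is a separate rat. Replicate numbers are not said to pair rats.

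The 9 genes and all lists were chosen with earlier results of these data known. Named were all members, pathway genes called in any comparison or up to 2 of the brightest per role, the 2 brightest genes of each list of markers (hepatocytes, tissue macrophages, monocytes, neutrophils, erythroid cells, platelets, T cells and B cells), and the 3 genes most correlated with each member. C4bpa was named for its position, and Marco, Hmox1, Cd163, Ngp and Camp as markers beyond the 2 brightest, after their values were seen. Alternatives were 4 scalings, a filter that removed the dimmest 40% of genes, the mean of clusters, all clusters, 2-group fits, another variance prior, array weights, the replicate block, the methods' t-test, no FC limit and leaving out each array. Medians by signal band were added after seeing the data. Start regions came from RefSeq windows of GRCr8, held for 6 of 9 members.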

Additional observations from a re-analysis of the deposited data

How the results depend on the processing

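With the replicate block the counts called higher and lower against Sham stayed at 2 and 0 of 9 members in QDBS and at 2 and 1 in YDBS, and no other call on a member changed. After removal of group means, correlations between same-numbered arrays ran from -0.17 to 0.196 and those between others from -0.13 to 0.217. Members higher in QDBS numbered 1 under 75th percentile centring, quantile normalization, cyclic loess, a fit of only the groups compared, array weights and the methods' t-test, where Cd59 lost its call, and 1 to 2 when an array was left out. Members lower in QDBS numbered 1 under 75th percentile centring, quantile normalization and cyclic loess, 3 by FDR alone, and 0 to 1 when an array was left out. In YDBS 1 member was higher by the methods' t-test, where Cd59 lost its call, and 2 were lower under 75th percentile centring and 5 by FDR alone. Pathway genes higher in QDBS numbered 2 under 75th percentile centring, quantile normalization, cyclic loess, array weights and the methods' t-test, and 2 to 4 when an array was left out. Pathway genes lower in QDBS numbered 9 under 75th percentile centring, 5 under quantile normalization, 3 under cyclic loess, 0 without dim genes, 3 with array weights and 17 by FDR alone, and 1 to 4 when an array was left out. Pathway genes lower in YDBS numbered 2 under array median centring, 12 under 75th percentile centring, 2 under cyclic loess, 2 without dim genes and 19 by FDR alone. Pathway genes lower in QDBS against YDBS numbered 0 to 1 when an array was left out. The sign of C1qb in QDBS turned under cyclic loess (0.046), and that of Cfp in QDBS under array median centring (0.045) and without QDBS replicate 1 (leaving out an array gave -0.303 to 0.027). The sign of C3 turned in YDBS without YDBS replicate 3 (range -0.429 to 0.076), and in QDBS against YDBS without QDBS replicate 1 (0.03) or YDBS replicate 2 (0.028), over a range of -0.477 to 0.03. The median change over all genes was 0.01 in QDBS and 0.04 in YDBS with array median centring, and -0.38 and -0.37 with 75th percentile centring. The cause of these changes was not tested. Under the alternative settings the share of all genes was taken only for FDR alone. The counts under the other settings are therefore not read as a result about the members or the pathway. C1qb was among the dim genes left out and had no value there. With 3 arrays a group, a difference whose interval held 0 could not be told from the spread between rats.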
